A study of Mus musculus with 12 samples.

Results

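Cysteine protease inhibitors of the stefin, cystatin and Ctla2 families were followed in bulk RNA-seq of mouse neutrophils. The 8 genes were Stfa1, Stfa2, Stfa2l1, Stfa3, Cstb, Cst3, Ctla2a and Ctla2b, taken as the rows of the count table whose Ensembl identifier carries one of these symbols, out of 37310 rows in all. All 8 passed the filter on low counts, which left 12917 genes. The group was chosen by the genotype contrasts of these same libraries, in which Stfa2, Stfa3 and Ctla2a were higher in Runx1KO cells, so every genotype difference of these genes is given as a description, with no p-value, and supports nothing beyond the choice.

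Stefins are small proteins of the cytosol that plug the active site of papain-like cysteine proteases such as cathepsins B, H, L and S, and so guard a cell against cathepsins that leak from lysosomes. In the mouse the stefin A gene has been multiplied into a cluster of near-identical copies, known for high transcript levels in maturing granulocytes. Cstb encodes the related and widely expressed stefin B, Cst3 encodes the secreted cystatin C, and Ctla2a and Ctla2b encode proteins that resemble the inhibitory propeptide of cathepsin L and were first found in activated T cells and mast cells.

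The 12 libraries came from neutrophils of C57BL/6 mice, sorted out of hind limb marrow by CD11b and Ly6G, without Siglec F or the antigen encoded by Adgre1. They formed 4 groups of 3: Control cells with vehicle, Control cells with lipopolysaccharide (LPS, a bacterial cell wall component), Runx1KO cells with vehicle and Runx1KO cells with LPS, each kept for 2 h, with LPS at 100 ng/mL. The series title concerns the control that Runx1, a transcription factor gene of blood cell development, exerts on cytokine production. The design text gives the Control material as LKS- cells (a progenitor fraction) from marrow pooled over a Runx1f/f and a Runx1f/- mouse, the latter with 1 germline mutant allele, while the sample labels give sorted neutrophils. The sources used here do not give the Cre driver, the deleted part of Runx1 or the age of the mice. Nor do they say whether the 3 libraries in a group stem from different mice, so what their spread measures is unknown. Stfa1 and Slc15a2, given below, differed between the library numbers of a genotype alike under both treatments.

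Library totals ran from 19023610 to 26225169 counts. Levels are CPM (counts brought to a common library size with TMM scaling factors), and group values are means ± SD of 3 libraries. The scaling factor was lowest, at 0.699, in Runx1KO LPS library 3. Neutrophil markers (8 genes such as S100a8 and Ly6g) summed to 99934 to 122704 CPM in Control and 71951 to 127370 CPM in Runx1KO. Progenitor markers (9 genes such as Kit and Cd34) summed to 38.4 to 59.3 CPM and 35.1 to 102 CPM. Single genes differed. Over the vehicle libraries Ly6g had 29431 counts in Control and 10439 in Runx1KO, and Retnlg 1027205 and 1559205. Of the progenitor markers Cd34 had 83 and 265, Myb 2336 and 3003, Gata2 94 and 114, and Meis1 16 and 84. Hlf had 134 and 284, and Mecom 0 and 13. Sox4 had 165 and 127, Flt3 87 and 82, and Kit 566 and 566. Myb was the most counted. With vehicle the other 8 summed to 11.03 to 18.49 CPM in Control and 17.66 to 24.03 CPM in Runx1KO. With LPS they summed to 14.42 to 20.76 CPM and 15.5 to 59.25 CPM, and Kit had 572 and 1588 counts. The sums thus do not show that maturity was alike between genotypes. Runx1 itself was counted in all 12 libraries, at 26.1 to 56.2 CPM in Control and 43.7 to 75.4 CPM in Runx1KO, which checks nothing while the deleted part is unknown.

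Levels of different genes can be set side by side only per length of transcript. Per kilobase of annotated exon, the order in Control cells with vehicle was Cst3 at 191 ± 56.3 CPM per kb, Stfa2l1 at 141 ± 38.2 and Cstb at 140 ± 81.5, then Stfa1 at 20.2 ± 20.0, Stfa3 at 11.7 ± 6.15, and last Ctla2a at 1.04 ± 0.439 and Ctla2b at 0.885 ± 0.502 (SD, n = 3). Stfa2 lay between Stfa1 and Stfa3, at 10.1 to 23.6 CPM per kb. Neighbours within each of these 3 tiers did not differ beyond their SDs. In Runx1KO cells with LPS the order was Stfa2l1 at 388 ± 96.2 CPM per kb, Cstb at 262 ± 204, Cst3 at 218 ± 33.4, Stfa2 at 153 ± 14.3, Stfa3 at 106 ± 27.4, Stfa1 at 16.1 ± 26.2, Ctla2a at 12.2 ± 2.14 and Ctla2b at 3.21 ± 1.51. Stfa2 and Stfa3 had moved from the level of Stfa1 toward that of Cst3. Exon lengths came from an annotation on GRCm38 and not from the one the counts were made with.

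Stfa2 (ENSMUSG00000022902.6), a stefin A copy, was low in every Control library and several-fold higher in every Runx1KO library. With vehicle it stood at 4.75, 5.39 and 11.1 CPM in Control libraries 1, 2 and 3 and at 47.3, 52.5 and 34.9 CPM in the Runx1KO libraries. Under LPS the Control libraries held 3.76, 5.87 and 10.4 CPM, and those of Runx1KO 74.1, 64.8 and 77.8 CPM. The genotypes did not overlap under either treatment, and Control library 3 was the highest of its group in both. On the log2 scale Runx1KO exceeded Control by 2.66 (SE 0.41) in vehicle and by 3.43 (SE 0.43) in LPS, that is 6.33-fold and 10.8-fold.

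Stfa3 (ENSMUSG00000054905.2), another copy, had the same shape at a lower level. It stood at 3.15, 3.60 and 7.74 CPM in Control vehicle libraries 1, 2 and 3 and at 27.4, 23.4 and 21.1 CPM in Runx1KO vehicle. Under LPS the Control libraries held 3.71, 4.30 and 5.60 CPM, and the Runx1KO libraries held 51.9, 30.9 and 48.6 CPM. The lowest Runx1KO library thus lay above the highest Control library under both treatments. The differences were 2.31 (SE 0.36) and 3.27 (SE 0.38) on the log2 scale, or 4.96-fold and 9.64-fold.

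Stfa2l1 (ENSMUSG00000059657.4), the most abundant of the 4 copies, differed less between genotypes. It stood at 52.4, 47.7 and 77.5 CPM in Control vehicle and at 96.5, 98.8 and 96.7 CPM in Runx1KO vehicle. Under LPS the Control libraries held 51.1, 49.9 and 57.5 CPM and the Runx1KO libraries 141, 138 and 209 CPM. The groups again did not overlap, and Runx1KO was higher by 0.72 (SE 0.25) on the log2 scale under vehicle and by 1.62 (SE 0.26) under LPS.

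Stfa1 (ENSMUSG00000071562.4) behaved unlike the other copies: it was either present or nearly absent in a library, whatever the genotype. In Control cells it was counted at 28.6, 14.3 and 0.254 CPM in vehicle libraries 1, 2 and 3 and at 26.9, 15.8 and 0.612 CPM in the LPS libraries of the same numbers. In Runx1KO it stood at 0.283, 25.7 and 0.175 CPM with vehicle and at 0.385, 32.9 and 1.01 CPM with LPS. Control libraries 1 and 2 and Runx1KO library 2 were therefore high under both treatments, and Control library 3 and Runx1KO libraries 1 and 3 were low under both, at 5 to 18 counts. The genotypes overlapped, with a log2 fold change of −0.72 (SE 1.91) under vehicle and −0.33 (SE 1.90) under LPS; 0.31% of the genes tested had a larger SE with vehicle. That the level followed the library number within a genotype across treatments is a measured pattern, and the sources used here do not say whether those libraries share a mouse.

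**Figure D1:**
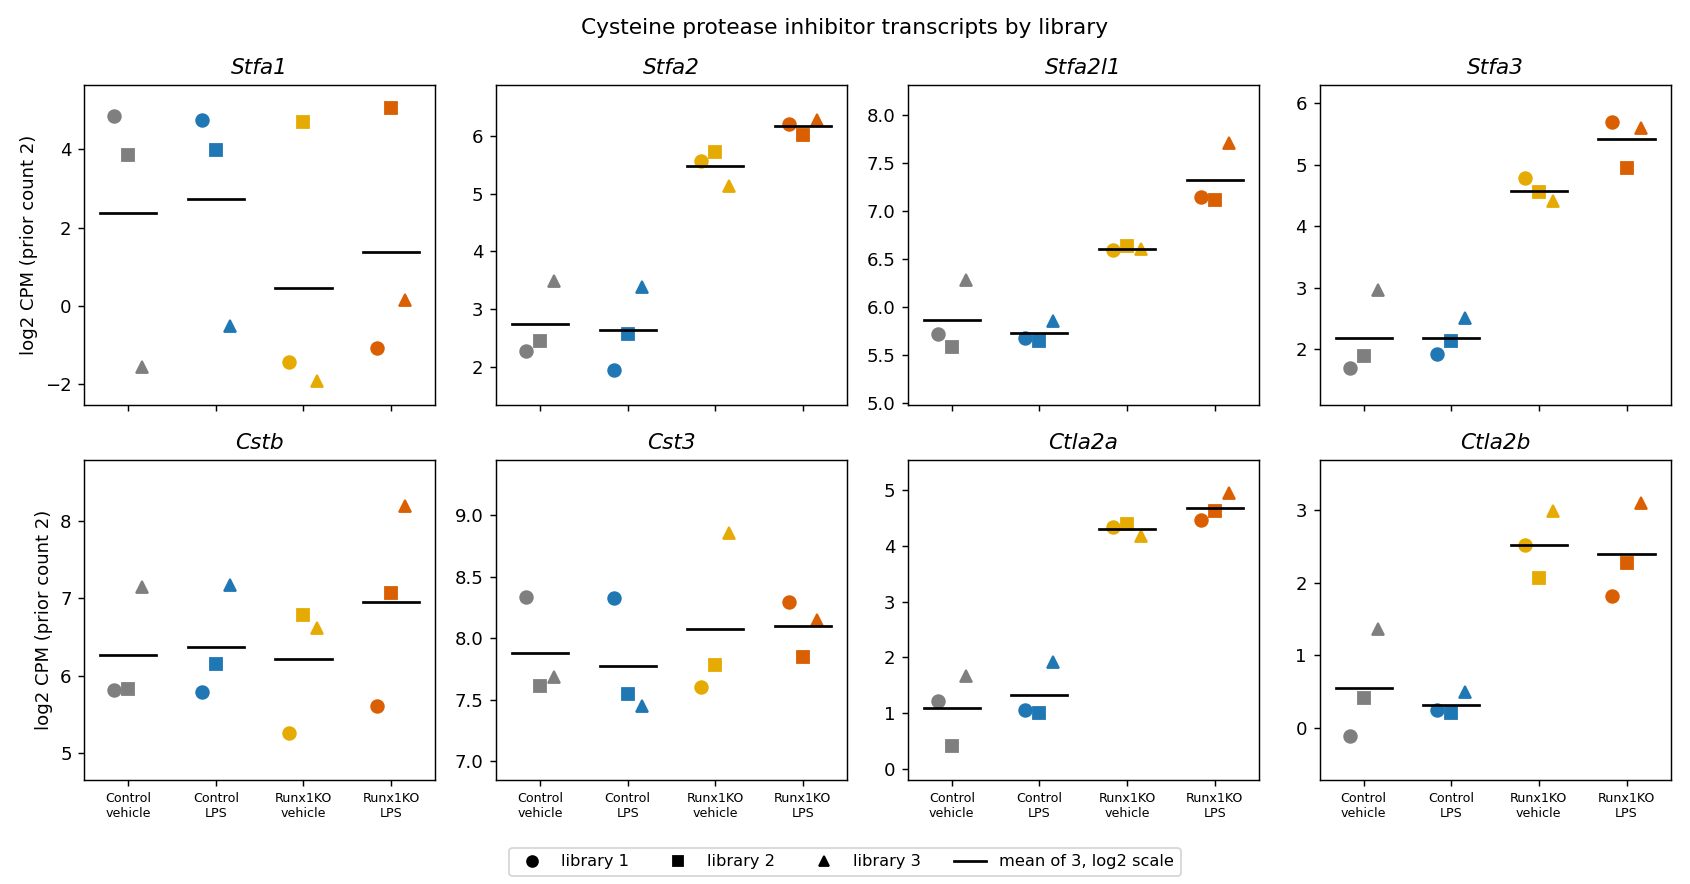
Log2 CPM (prior count 2, vertical axis) of the 8 genes in each of the 12 libraries, by group on the horizontal axis; circles, squares and triangles are libraries 1, 2 and 3, and bars are means of 3. Stfa2, Stfa2l1, Stfa3, Ctla2a and Ctla2b are higher in all 6 Runx1KO libraries than in all 6 Control libraries, Stfa1 falls into a high and a near-absent set of 6 libraries each, and Cstb and Cst3 overlap between genotypes.

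The copies can trade reads. In an annotation of transcripts on GRCm38, the coding sequences of Stfa2 and Stfa2l1 were identical at 298 of 309 bases (96.4%), whereas Stfa3 was 80.9% identical to Stfa2 and 81.6% to Stfa2l1. The 291 coding bases of BC100530 were 97.9% identical to Stfa1. Of all 50-base windows of a transcript, 25.4% of those of Stfa1 also occurred in BC100530 or BC117090, 14.7% of those of Stfa2 in Stfa2l1, 16.8% of those of Stfa2l1 in Stfa2 and 0% of those of Stfa3 in another gene of the table. Over all annotated genes the 50-base share was 15.9% for Stfa2 and 24.6% for Stfa2l1, and the same as above for Stfa1 and Stfa3. At 100 bases the share was 1.9% for Stfa1 and 0% for Stfa2, Stfa2l1 and Stfa3, by either count. The sources used here do not give the read length or the handling of reads that match several genes, so values of Stfa1, Stfa2 and Stfa2l1 are uncertain by reads of these copies, and Stfa3 rests on its own sequence.

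The 3 other measured genes of the cluster, Gm5483, BC100530 and BC117090, carry identifiers and not family names in the gene list used here, and were counted beside the members. Gm5483 averaged 67.9 ± 25.7 CPM in Control cells given vehicle, 66.1 ± 9.30 given LPS, and 133 ± 20.8 and 275 ± 101 in Runx1KO cells (SD, n = 3). BC100530 averaged 17.1 ± 17.6, 12.7 ± 9.51, 63.6 ± 14.6 and 108 ± 20.9 CPM in the same order. Both were higher in Runx1KO: Gm5483 by 0.97 (SE 0.33) and BC100530 by 1.90 (SE 0.68) on the log2 scale under vehicle, and by 2.05 (SE 0.34) and 3.09 (SE 0.71) under LPS. BC117090 stood at 13.5 CPM in Control vehicle library 3 and 9.08 CPM in Control LPS library 3, against 0.202 to 0.882 CPM in the other 4 Control libraries and 2.65 to 6.51 CPM in Runx1KO. Csta1, a further cluster gene, had 0 counts in all 12 libraries. Control library 3 was thus high for BC117090 and BC100530 (37.3 CPM with vehicle, against 8.95 and 4.95 CPM in libraries 1 and 2) where it was near absent for Stfa1.

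A sum over copies does not depend on how reads were divided among those summed. The 4 stefin A members summed to 71.0 to 96.6 CPM in Control vehicle, 74.1 to 85.4 CPM in Control LPS, 153 to 200 CPM in Runx1KO vehicle and 266 to 337 CPM in Runx1KO LPS, with no overlap between genotypes. As a log2 fold change the sum differed by 1.03 (SE 0.23) under vehicle and 1.89 (SE 0.23) under LPS, and once the 3 relatives were added by 1.09 (SE 0.29) and 2.08 (SE 0.30). The makeup of the sum of 7 genes differed too: Stfa2 took 2.97 to 4.57% of these counts in Control vehicle and 10.9 to 12.5% in Runx1KO vehicle. Stfa2l1 took 31.8 to 39.0% and 23.5 to 30.1%. In bulk cells, a change in the share of cells that hold these transcripts and a change in transcripts per cell cannot be told apart.

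**Figure D2:**
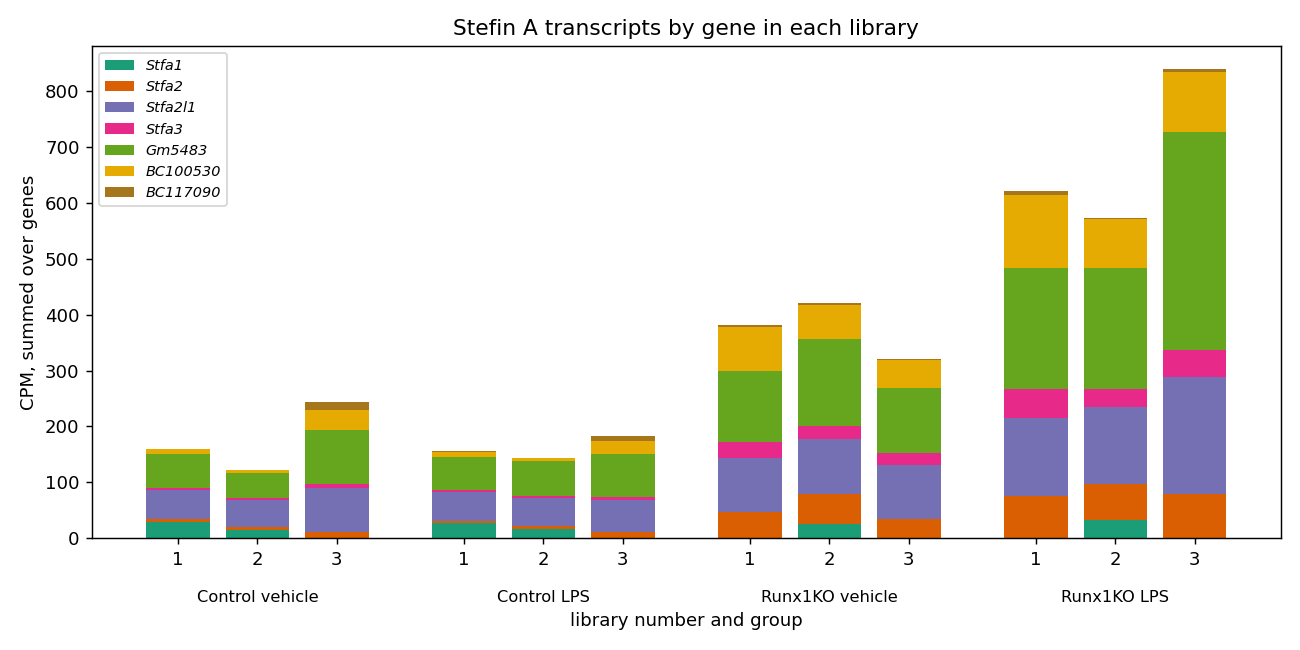
CPM of the 7 counted stefin A genes (colours) stacked for each library (horizontal axis, by number and group). The full bars run from 122 to 244 CPM in Control and from 321 to 839 CPM in Runx1KO, Stfa2l1 and Gm5483 make up most of each, and the Stfa1 segment is visible in libraries 1 and 2 of Control and library 2 of Runx1KO.

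Since Stfa2, Stfa2l1 and Stfa3 moved together and Stfa1 apart from them, the stretches upstream of their start sites are shown, from RefSeq on GRCm38.p6, beside that of Ctla2a. The letters TGTGGT, known as the core of RUNX binding sites, were searched on both strands; in the stefin A stretches they occur as ACCACA, on the other strand, and are in capitals. The stretches are chr16:36276898-36276950 on the plus strand for Stfa1, chr16:36408458-36408613 on the minus strand for Stfa2, chr16:36156561-36156810 on the plus strand for Stfa2l1, chr16:36455393-36455642 on the minus strand for Stfa3 and chr13:60936626-60936875 on the minus strand for Ctla2a. Each starts 250 bases before the annotated start and ends before the first start that either annotation used here gives, so those of Stfa1 and Stfa2 are short.
Stfa1: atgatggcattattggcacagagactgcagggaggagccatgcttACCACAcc
Stfa2: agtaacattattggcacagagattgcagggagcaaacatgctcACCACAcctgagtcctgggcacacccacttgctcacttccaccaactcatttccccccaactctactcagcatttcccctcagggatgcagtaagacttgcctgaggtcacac
Stfa2l1: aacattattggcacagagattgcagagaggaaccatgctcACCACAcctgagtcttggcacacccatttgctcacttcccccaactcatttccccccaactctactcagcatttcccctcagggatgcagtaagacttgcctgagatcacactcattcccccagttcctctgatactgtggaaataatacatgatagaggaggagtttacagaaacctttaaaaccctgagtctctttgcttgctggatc
Stfa3: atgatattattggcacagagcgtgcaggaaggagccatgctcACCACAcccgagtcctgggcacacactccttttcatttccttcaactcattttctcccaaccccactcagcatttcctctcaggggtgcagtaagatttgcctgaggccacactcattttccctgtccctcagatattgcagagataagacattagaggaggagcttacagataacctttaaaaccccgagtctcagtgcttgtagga
Ctla2a: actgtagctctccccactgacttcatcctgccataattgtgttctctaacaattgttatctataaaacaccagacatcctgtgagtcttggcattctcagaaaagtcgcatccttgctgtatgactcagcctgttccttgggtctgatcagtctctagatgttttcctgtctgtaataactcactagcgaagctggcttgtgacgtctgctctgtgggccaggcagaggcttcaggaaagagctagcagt

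In these copies the match began at position −205 from the start of Stfa1, −207 of Stfa2, −210 of Stfa2l1 and −208 of Stfa3. Stfa1 had a second match at −163, outside the stretch shown. In windows of 300 bases (250 before to 50 after the start) it was also found for Gm5483, at −160, and for BC100530, at −185 and −142, which RefSeq lists as Cstdc4 and Cstdc5. No match was found for Ctla2a in its 2 windows, for Ctla2b or for Cst3. Of all 32851 such windows 16.8% held TGTGGT on either strand. The stretches shown for the stefin A copies are alike around the match, so their matches cannot be counted as separate against that share. TGCGGT was found in none of the windows of these genes and in 6.5% of all windows. A match is a string of letters and was not tested for binding, and its part in the genotype differences was not tested.

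Ctla2a (ENSMUSG00000044258.9), which encodes an inhibitor of cathepsin L-like proteases, was the member with the largest genotype difference with vehicle. It stood at 2.23, 1.24 and 3.09 CPM in Control vehicle libraries and at 20.3, 20.9 and 17.9 CPM in Runx1KO vehicle libraries. Under LPS the Control libraries held 2.00, 1.92 and 3.67 CPM and those of Runx1KO 21.9, 24.7 and 30.8 CPM. The 6 Control libraries held 31 to 78 counts each and the 6 Runx1KO libraries 472 to 550, with no overlap. That made log2 fold changes of 3.17 (SE 0.37; 9.01-fold) and 3.34 (SE 0.37; 10.2-fold).

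Ctla2b (ENSMUSG00000074874.3), its neighbour and close copy on chromosome 13, was lower in level and also did not overlap between genotypes. It stood at 0.840, 1.24 and 2.50 CPM in Control vehicle and at 5.67, 4.08 and 7.81 CPM in Runx1KO vehicle. Under LPS the Control libraries were at 1.10, 1.06 and 1.32 CPM, below the 3.42, 4.72 and 8.43 CPM of Runx1KO. Its log2 fold changes were 1.94 (SE 0.47) and 2.24 (SE 0.48), in the same order. The coding sequences of the pair were identical at 326 of 339 aligned bases (96.2%), and 11.9% of the 50-base windows of Ctla2b occurred in Ctla2a, so with short reads part of either value can belong to the other. At 100 bases 0% of them occurred in another gene of the table. Over all annotated genes 86.1% of the 50-base windows of Ctla2b recurred elsewhere, as did 30.1% of those of Ctla2a and 35.6% of those of Gm5483. At 100 bases these shares were 76.9%, 19.5% and 11.1%. How such reads were counted is unknown.

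T cells and mast cells, in which Ctla2 transcripts are known, were checked through their markers. T and NK cell markers (9 genes) summed to 36.2 to 56.3 CPM in the Control libraries and to 6.04 to 12.0 CPM in the Runx1KO libraries. That gap was Cd3d, at 32.4 to 47.5 CPM in Control and 1.35 to 3.06 CPM in Runx1KO, while the other 8 genes summed to 3.04 to 8.88 CPM and 3.76 to 10.2 CPM, which overlap.

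Mast cell and basophil markers (7 genes) overlapped, at 12.9 to 36.7 CPM in Control and 4.17 to 48.4 CPM in Runx1KO. Without Kit, which progenitors share, the other 6 genes summed to 3.54 to 25.7 CPM in Control and 1.20 to 2.92 CPM in Runx1KO. Mcpt8, Prss34 and Fcer1a were at 0 counts in Runx1KO. Kit went the other way with LPS, at 572 counts in Control and 1588 in Runx1KO, as did Gata2, at 57 and 120. Eosinophil markers (8 genes), listed because eosinophils are known to hold stefin A transcripts, overlapped at 10.9 to 35.3 CPM and 9.47 to 28.7 CPM. They did not move as 1 set: over the 3 libraries of a group Ear2 had 852 counts in Control vehicle and 12 in Runx1KO vehicle, and Ccr3 had 53 and 409.

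Megakaryocyte and platelet markers moved with the genotype in the same direction as Stfa2, Stfa3 and the Ctla2 genes. Their sum (10 genes, none at 0) was 28.5 to 36.1 CPM in Control and 43.5 to 58.0 CPM in Runx1KO, but most of the Control sum was Itgb3, at 25.4 to 33.5 CPM against 11.1 to 20.5 CPM in Runx1KO. The other 9 genes summed to 1.80 to 7.62 CPM in Control and to 29.8 to 46.5 CPM in Runx1KO. Over the vehicle libraries Pf4, a platelet chemokine gene, had 26 counts in Control and 841 in Runx1KO, and Itga2b, a platelet integrin gene, had 55 and 765. Endothelial markers other than Pecam1 (4 genes) were also higher, at 0.0423 to 0.304 CPM in Control, with Tek and Emcn at 0 counts, and 0.956 to 1.93 CPM in Runx1KO. Pecam1, the most counted of that list, overlapped, at 2.32 to 4.41 CPM in Control and 1.84 to 4.37 CPM in Runx1KO. With Pecam1 the 5 endothelial genes summed to 2.597 to 4.61 CPM and 3.01 to 5.52 CPM, which overlap. The lists were divided at their most counted gene after the values were seen. The part of these cells in the stefin and Ctla2 differences was not tested.

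Cstb (ENSMUSG00000005054.6) showed no separation of the genotypes. It stood at 56.1, 56.5 and 141 CPM in Control vehicle libraries 1, 2 and 3, at 55.2, 70.8 and 144 CPM in Control LPS, at 38.2, 110 and 97.4 CPM in Runx1KO vehicle and at 48.7, 134 and 291 CPM in Runx1KO LPS. Library 3 was high in Control under both treatments and library 1 low in Runx1KO under both. Cstb differed between genotypes by −0.05 (SE 0.64) under vehicle and 0.81 (SE 0.64) under LPS on the log2 scale, and without Runx1KO LPS library 3 the latter was 0.02. That library also held 2052 CPM of summed monocyte and macrophage markers (11 genes), against 168 to 697 CPM in the other 11 libraries, and their part in the Cstb value was not tested.

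Cst3 (ENSMUSG00000027447.6), the most counted of the 8 genes, overlapped as well. It stood at 324, 196 and 205 CPM in Control vehicle, 320, 186 and 175 CPM in Control LPS, 194, 220 and 462 CPM in Runx1KO vehicle and 314, 230 and 283 CPM in Runx1KO LPS. Control library 1 was high under both treatments, while the high value of Runx1KO vehicle library 3 was not seen in the LPS library of that number. Cst3 differed by 0.27 (SE 0.38) under vehicle and 0.28 (SE 0.38) under LPS, and without the libraries numbered 3 the vehicle value was −0.29. Cst3 is known for high levels in monocytes and dendritic cells, and Runx1KO LPS library 3, with the highest monocyte and dendritic cell marker sums (2052 and 327 CPM), held 283 CPM of it.

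The genotype calls of these genes entered the choice of the group, so they are restated as a description from which nothing is read. In edgeR's fit over all genes 3 of the 8 members lay past the adjusted threshold of 0.05 with vehicle (Stfa2, Stfa3 and Ctla2a) and 4 with LPS (these and Stfa2l1), where 0.952% and 0.921% of all genes did, 0.348% higher in Runx1KO under each treatment. Ctla2b lay outside under both treatments. Groups did not overlap for 5 members under both treatments (Stfa2, Stfa2l1, Stfa3, Ctla2a and Ctla2b), where 5.42% of all genes were higher without overlap with vehicle and 6.51% with LPS.

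These calls moved with the settings together with those of all genes. With the library number as a block, which paired the genotypes, 4 members were past the threshold with vehicle and 5 with LPS, Ctla2b being the addition, while calls over all genes went from 123 to 315 and from 119 to 302. DESeq2 gave the same 4 and 5 members. Without Control vehicle library 1 or 2, 1 member (Ctla2a) was past it with vehicle, among 47 and 70 genes in all. Without any 1 of the Control LPS libraries Stfa2l1 was not past it with LPS, among 49 to 66 genes. Without the 4 libraries numbered 1 there were 0 members among 2 genes with vehicle and 3 with LPS, and without those numbered 2 there were 0 among 1 and 4. Without those numbered 3 there were 2 members (Stfa2 and Ctla2a) among 6 genes with vehicle and 3 (these and Stfa3) among 25 with LPS.

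**Figure D3:**
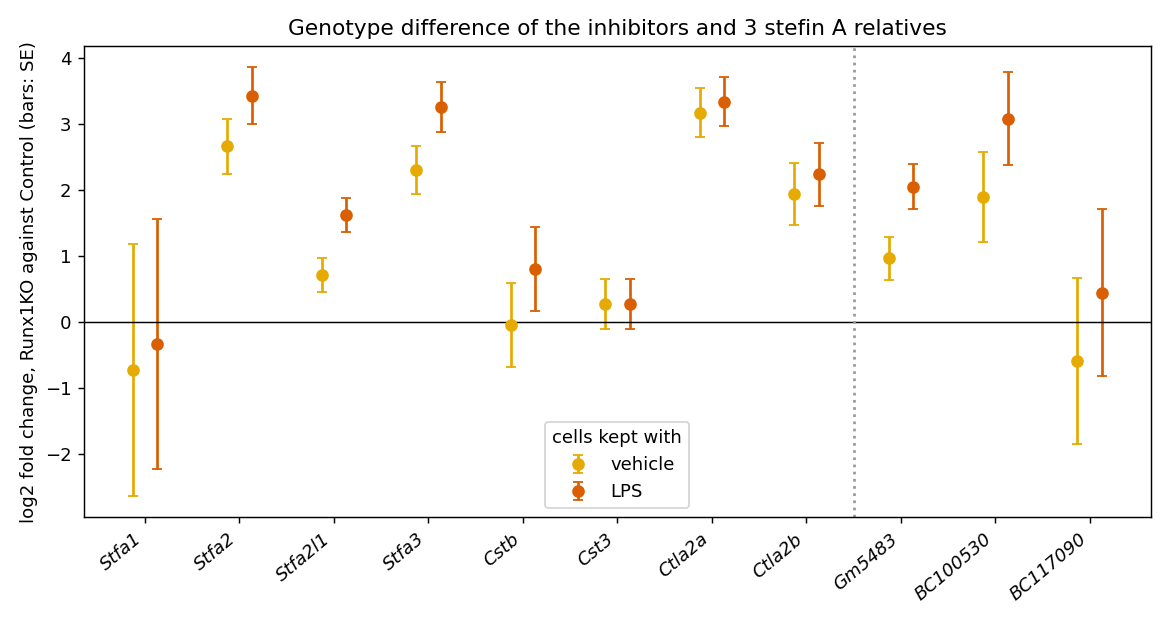
Log2 fold change of Runx1KO against Control (points) with its SE (bars) for the 8 genes and, right of the dotted line, 3 stefin A relatives, for cells kept with vehicle and with LPS. Ctla2a, Stfa2 and Stfa3 lie highest with vehicle, between 2.31 and 3.17, Cstb and Cst3 lie near 0, and the bars of Stfa1 and BC117090 are the widest.

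Members on chromosomes 16 and 13 varied together over the libraries. Pearson's r of log2 CPM over the 12 libraries was 0.988 between Stfa2 and Stfa3, 0.980 between Stfa2 and Ctla2a and 0.990 between Stfa2l1 and Gm5483, values that include the genotype difference. For the deviations from the group means, r was 0.834, 0.739 and 0.953 for these pairs, over the same 12 libraries. Stfa1 went the other way within groups, with r of −0.784 to Stfa3 and −0.683 to BC117090. BC100530 and BC117090, whose sequences share 33.5 and 33.7% of their 50-base windows with other genes of the table, had r of 0.979 within groups. These are descriptions over libraries that share group, depth and number.

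Genes flanking the cluster on chromosome 16 were looked at in gene order on GRCm38. Of the 12 nearest tested genes, 6 on each side, the median log2 difference between the genotypes was 0.25 with vehicle, with 0 called, and 0.71 with LPS, with 1 called. The called gene, Fam162a, which encodes a mitochondrial protein and lies second before the cluster, stood at 2.97 to 5.06 CPM in Control LPS and 12.7 to 20.6 CPM in Runx1KO LPS (a log2 difference of 1.99 with SE 0.32, adjusted p = 0.0116 by edgeR). Cd86, the costimulatory ligand gene next after the cluster, stood at 8.74 to 19.9 CPM in Control vehicle and 27.2 to 55.7 CPM in Runx1KO vehicle without overlap (1.65, SE 0.39), and did not pass the test (adjusted p = 0.0828). Around the Ctla2 pair on chromosome 13 the median of 12 neighbours was 0.01 with vehicle and 0.02 with LPS, with 0 called under either. The 12 flanking genes on chromosome 16 were not tested against the rest of the genome.

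Slc15a2, a peptide transporter gene that lies second after the cluster, was singled out after its values were seen. Control libraries 1, 2 and 3 held 129, 0 and 284 counts of it under vehicle and 83, 0 and 157 under LPS. Runx1KO libraries held 152, 341 and 0 counts under vehicle and 71, 369 and 0 under LPS. As for Stfa1, the level went with genotype and library number and was alike under both treatments, but the libraries without it (Control 2 and Runx1KO 3) were not those low in Stfa1 (Control 3, Runx1KO 1 and Runx1KO 3) apart from Runx1KO 3.

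**Figure D4:**
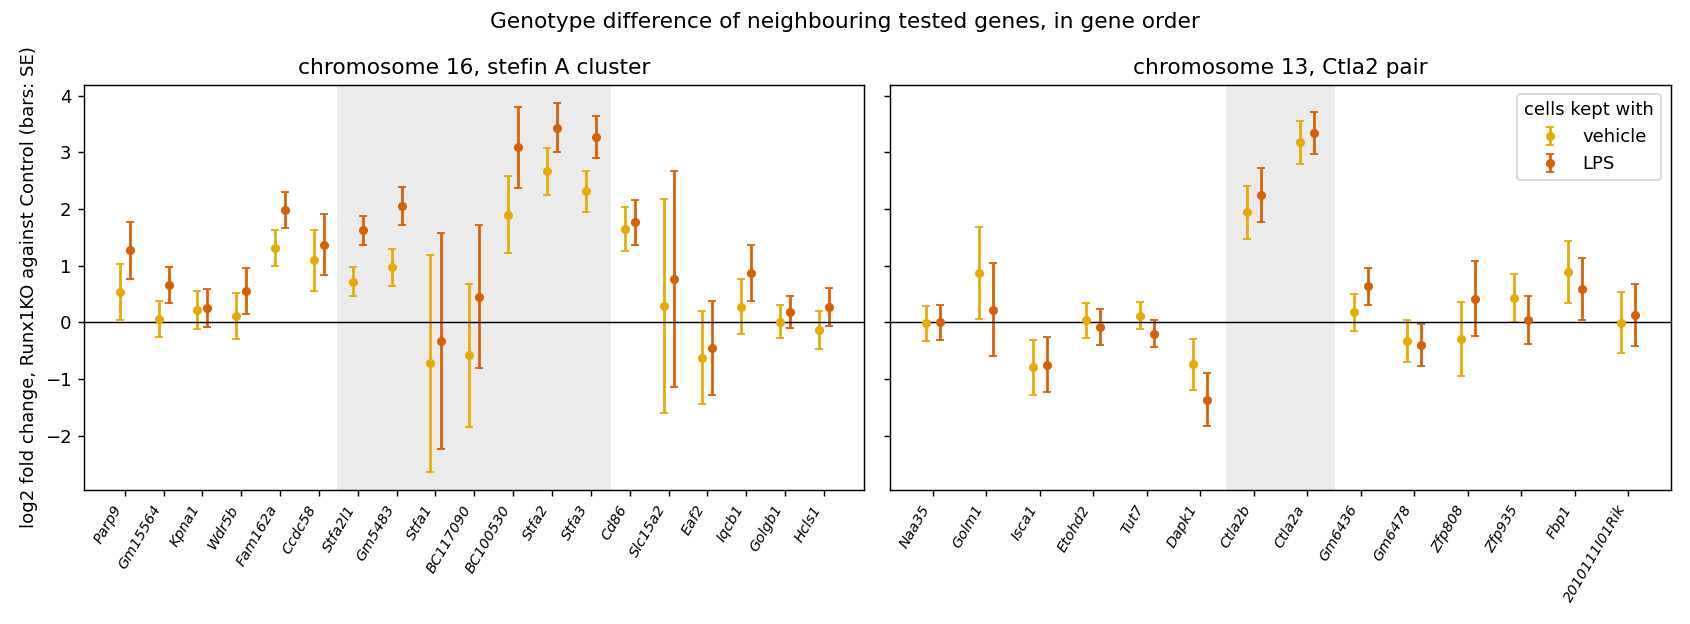
Log2 fold change of Runx1KO against Control (points) with its SE (bars) for tested genes in gene order, with the stefin A cluster on chromosome 16 (left, shaded) and the Ctla2 pair on chromosome 13 (right, shaded) between 6 neighbours on each side. Fam162a and Cd86 flank the cluster at 1.31 and 1.65 with vehicle, and Stfa1 and Slc15a2, with libraries at or near 0 counts, have wide bars.

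The LPS comparisons did not choose these genes and were tested, but they share libraries with the genotype contrasts that did. In Control cells no member passed the test: the log2 fold changes ran from −0.39 for Ctla2b (SE 0.47) to 0.22 for Ctla2a (SE 0.36), with a median of −0.09 beside −0.02 over all genes. The adjusted p was 1 for each of the 8 by edgeR's quasi-likelihood test, and 0 of 12917 genes (0%) were called. As no gene was called, the lack of a call does not show that LPS left the members unchanged. At an unadjusted p under 0.05 there were 78 genes (0.604%), none of them a member, and DESeq2 and limma-voom called 0 as well. The 3 LPS libraries did not lie apart from the 3 vehicle libraries for any member (0 of 8), against 2.84% of all genes higher and 2.32% lower without overlap. The summed 4 stefin A members had a log2 fold change of −0.12 (SE 0.23), which turned to 0.02 without the libraries numbered 3.

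In Runx1KO cells most members stood higher with LPS, without passing the test. The log2 fold changes were 0.69 for Stfa2 (SE 0.39), 0.74 for Stfa2l1 (SE 0.25), 0.87 for Stfa3 (SE 0.35), 0.40 for Stfa1 (SE 1.91), 0.95 for Cstb (SE 0.64) and 0.39 for Ctla2a (SE 0.34). Cst3 (−0.08, SE 0.38) and Ctla2b (−0.09, SE 0.45) stood near 0. The adjusted p ran from 0.873 to 0.996, and 0 of 12917 genes (0%) were called. DESeq2 called 1 gene and no member, limma-voom called 0, and at an unadjusted p under 0.05 there were 676 genes (5.23%), among them Stfa2l1 and Stfa3. The median over the 8 members was 0.54, beside 0.03 over all genes.

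The values of Stfa2, Stfa2l1, Stfa3 and Ctla2a in the 3 Runx1KO LPS libraries lay above all 3 Runx1KO vehicle libraries, that is 4 of 8 members, and so did those of Gm5483 and BC100530. Of all genes, 3.51% were higher without overlap in this comparison. Both rest on TMM factors of 0.699 in Runx1KO LPS library 3 and 1.16 and 1.20 in Runx1KO vehicle libraries 1 and 3. Scaled by library size alone, Stfa2, Stfa3 and Ctla2a overlapped and Stfa2l1 did not. The log2 fold changes were then 0.37 for Stfa2, 0.55 for Stfa3, 0.03 for Ctla2a and 0.38 for Stfa2l1. The median of all genes was then −0.28. Between Runx1KO libraries of the same number, LPS minus vehicle was positive in all 3 pairs for 6 of 8 members, against 15.6% of all genes, and in Control for 0 of 8, against 16.3%. It was negative in all 3 Control pairs for 1 of 8, Cst3, against 18.6% of all genes. Deviations of same-numbered libraries from their group means went together across treatments in Control. In Runx1KO they did so for numbers 1 and 2 (r = 0.314 and 0.537) but not for number 3 (0.006). Presence or near absence of Stfa1 and Slc15a2 followed the number in Runx1KO under both treatments, so whether its numbers pair is not settled. The Runx1KO libraries here, with vehicle and with LPS, are also those of the genotype contrasts on which members were chosen. The shares of members above are therefore not independent of that choice.

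Between the libraries numbered 3, Stfa2, Stfa2l1 and Stfa3 were lower with LPS in Control and higher in Runx1KO. LPS minus vehicle on the log2 CPM scale was −0.10 for Stfa2, −0.43 for Stfa2l1 and −0.46 for Stfa3 in Control, and 1.15, 1.11 and 1.20 in Runx1KO. Ctla2b likewise had −0.88 and 0.11, whereas Stfa1 (1.03 and 2.06), Cstb (0.03 and 1.58), Ctla2a (0.24 and 0.77) and Cst3 (−0.23 and −0.71) had 1 sign in both genotypes.

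Nfkbia, an NF-kB inhibitor gene that LPS is known to induce and that was picked here, like Tnf, after its values were seen, was higher with LPS by 0.50, 0.52 and 4.25 in the Control pairs numbered 1, 2 and 3 and by 0.14, 0.59 and 4.33 in the Runx1KO pairs. Tnf, the gene of the cytokine TNF, was higher by 0.57, 1.09 and 6.09 in the Control pairs, and in the Runx1KO pairs it differed by −1.54, 1.27 and 6.92. The libraries numbered 3 thus differed most for both genes in both genotypes, and those numbered 1 differed in opposite directions for Tnf between the genotypes. In Runx1KO pairs 1 and 2, where Nfkbia differed by less than 0.6, Stfa3 was higher by 0.92 and 0.40 and Stfa2 by 0.65 and 0.30.

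**Figure D5:**
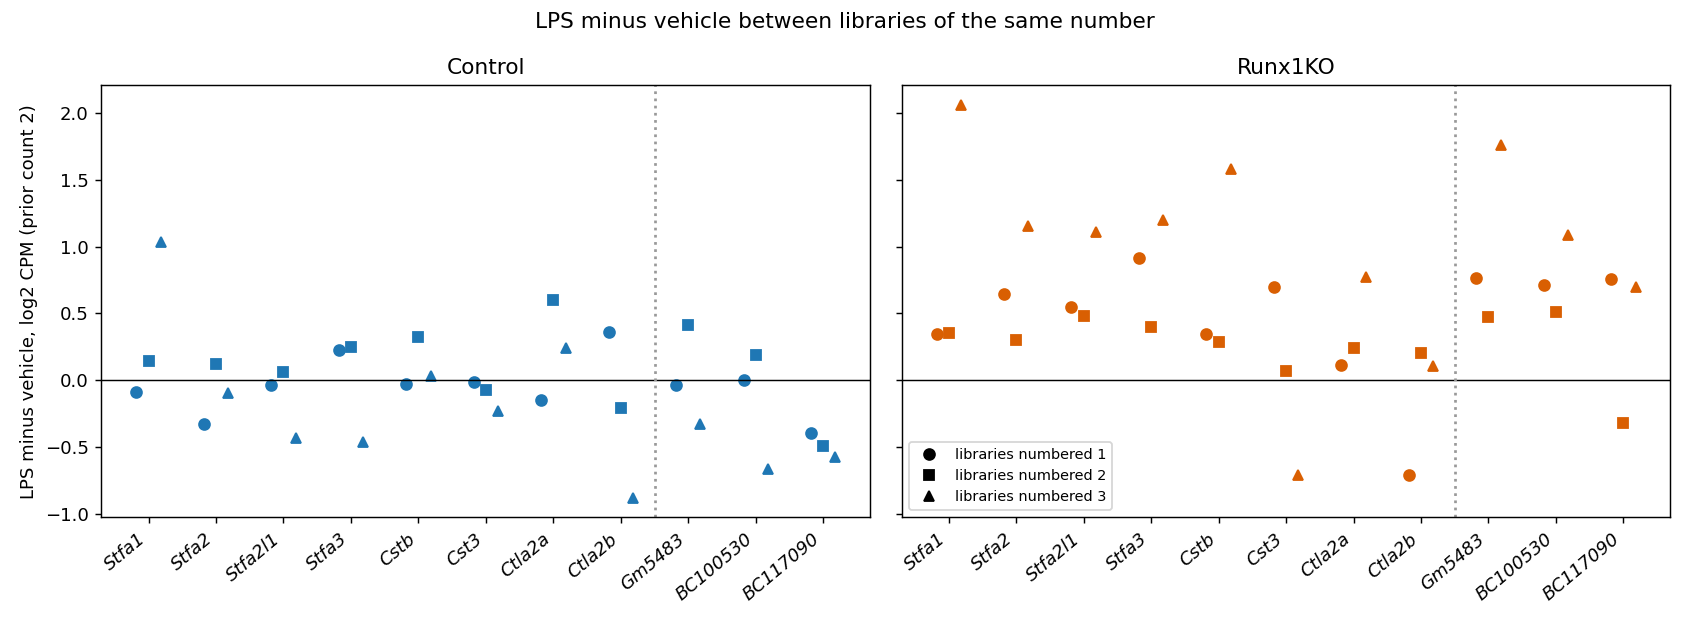
LPS minus vehicle in log2 CPM (prior count 2, vertical axis) between libraries of the same number, for Control (left) and Runx1KO (right); circles, squares and triangles are numbers 1, 2 and 3, and the 3 relatives stand right of the dotted line. Control points scatter about 0 for most genes, while in Runx1KO all 3 points are above 0 for Stfa1, Stfa2, Stfa2l1, Stfa3, Cstb, Ctla2a, Gm5483 and BC100530.

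The difference of the LPS responses, Runx1KO minus Control, was positive for all 8 members and did not pass the test for any of them. It equals the genotype contrast with LPS minus that with vehicle, so it is not independent of the choice of members. It was 0.77 for Stfa2 (SE 0.55), 0.91 for Stfa2l1 (SE 0.36), 0.96 for Stfa3 (SE 0.49) and 0.86 for Cstb (SE 0.90), and ran from 0.01 for Cst3 (SE 0.54) to 0.39 for Stfa1 (SE 2.69) in the other 4. The median was 0.58, beside 0.05 over all genes, of which 55.1% were positive. By edgeR's quasi-likelihood test the adjusted p was 1 for each, and 0 of 12917 genes (0%) were called, with 77 (0.596%) at an unadjusted p under 0.05, Stfa2l1 among them. DESeq2 and limma-voom called 0 too. The direction held for Stfa2, Stfa2l1 and Stfa3 under scaling by library size alone, and it turned for Cst3 (−0.22) and Ctla2a (−0.03).

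The summed 4 stefin A members gave the same picture with less error. The sum was 0.73 log2 higher with LPS in Runx1KO (SE 0.23, edgeR adjusted p = 0.873), and the difference of the responses was 0.85 (SE 0.32, adjusted p = 1). With the 3 relatives added these were 0.86 (SE 0.29) and 0.98 (SE 0.41). Without Runx1KO LPS library 3 the sum was 0.58 higher with LPS in Runx1KO, and without all 4 libraries numbered 3 it was 0.50. Scaling by library size alone, which moved the median of all genes in this comparison from 0.03 to −0.28, gave 0.39.

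None of the tested proteases of the families that these inhibitors block passed the test. Of 11 genes for cysteine cathepsins and legumain 9 were tested and 0 passed in any of the 5 comparisons; their median log2 difference between the genotypes was 0.09 with vehicle and 0.48 with LPS. Ctsb, a lysosomal cathepsin inhibited by stefins, was counted at 272, 416 and 195 CPM in the Control vehicle libraries, overlapping the 376, 519 and 277 CPM of Runx1KO vehicle (log2 fold change 0.41, SE 0.41, edgeR adjusted p = 1). Ctsz, a cathepsin with carboxypeptidase activity, had −0.45 (SE 0.52, adjusted p = 1). With LPS in Runx1KO the fold changes of Ctsb and Ctsz were 0.83 (SE 0.41) and 0.77 (SE 0.52), both with an adjusted p of 0.873. The neutrophil serine proteases (4 of 4 tested) and the calpains (3 of 3 tested), which stefins are not known to inhibit, had 0 members past the test in any comparison.

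Other inhibitors were mixed. Of 24 serpins, WAP-domain proteins, tissue inhibitors of metalloproteases and similar genes 16 were tested, and 1 passed: Serpinb10, a clade B serpin of myeloid cells, was higher in Runx1KO than in Control under LPS, at 89.8 ± 2.01 against 25.4 ± 2.34 CPM (SD, n = 3). The log2 difference of Serpinb10 was 1.82 (SE 0.28) with an edgeR adjusted p of 0.00904. The most abundant of the list, Wfdc21 and Slpi, which encode secreted WAP-domain inhibitors of granulocytes, differed between genotypes by −0.32 (SE 0.39) and −0.32 (SE 0.45) under vehicle and did not pass (adjusted p = 1 for both). Of the other cystatins 1 of 14 was tested, Cst7, which encodes the leukocyte cystatin F, at 1.20 ± 0.586 CPM in Control vehicle and 1.11 ± 0.681 CPM in Runx1KO vehicle (−0.10, SE 0.89, adjusted p = 1).

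Genes most like each member were taken as the 4 with the highest Pearson's r of log2 CPM over the 12 libraries, out of 7052 genes; this r includes the group differences and carries no test. Serpinb10 led for Stfa2 (r = 0.965; 0.764 within groups) and for Stfa3 (r = 0.967; 0.671), followed by Dbi, which encodes an acyl-CoA binding protein (0.945 and 0.955). For Ctla2a the list was Afdn, an adhesion scaffold gene (0.963), Dmwd (0.951), Serpinb10 (0.932) and Cd86 (0.931). Afdn had r of 0.180 with Ctla2a within groups, so its likeness is that of the group means. Dmwd and Afdn completed the list of Stfa2 (0.934 and 0.931), and Afdn and Zfp277 that of Stfa3 (0.952 and 0.944).

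Cstb and Cst3 were like other sets of genes. The chemokine gene Ccl9 (0.954), the ubiquitin ligase subunit gene Rbx1 (0.951), its processed copy Rbx1-ps, which can share its reads (0.951), and the mitochondrial ribosome gene Mrpl20 (0.947) were closest to Cstb, and within groups r was 0.947 to 0.970. The receptor gene Sirpb1c (0.937), Hnmt, which encodes a histamine-degrading enzyme (0.872), Leprot (0.857) and Smim4 (0.844) were closest to Cst3. Since neither gene differed between genotypes beyond its spread, these lists rest on how single libraries vary.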

How the data were processed

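Read counts per gene in 12 libraries were used. Per the submitters' processing notes, STAR 2.6.0a and featureCounts were used with mm9; annotation, read length and strand setting are not stated in the sources read. The deposited values are whole-number counts that the authors did not normalize, as unequal totals show. Column names were mapped to sample titles, leaving 0 columns unused.

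Genes were filtered with edgeR 4.0.16 (filterByExpr), scaled by TMM and tested by quasi-likelihood, fitting all 4 groups together over 12917 genes, in R 4.3.3; SEs are those of the log2 fold changes, and adjusted p values are Benjamini-Hochberg over all genes with a threshold of 0.05. There were 5 contrasts: the LPS effect per genotype, the difference of these effects, and the genotype effect per treatment. The code was tested on simulated data. Log2 CPM used a prior count of 2. Reads carry no molecular identifiers, and without the strand setting, overlapping and antisense genes cannot be told apart.

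Named were all 8 genes, the measured stefin A relatives, called genes of each list (or its 2 most abundant) and the 4 most alike genes per member for Ctla2a, Stfa2, Stfa3, Cstb and Cst3. The members and all lists were chosen with earlier results of these data known. Alternatives were DESeq2 1.42.0 and its size factors, library size alone, no filter on low counts, limma-voom (limma 3.58.1), the library number as a block, a prior count of 0.5, and libraries left out. Deviations from group means of same-numbered libraries correlated at 0.374 to 0.479 between genotypes with vehicle and 0.429 to 0.565 with LPS. Between treatments they correlated at 0.394 to 0.667 in Control and 0.006 to 0.537 in Runx1KO. By a limit of 0.1 all but the last were taken as paired, and there only number 3 fell below it. Coding sequences and transcripts came from GENCODE M21 on GRCm38 and were aligned with biopython 1.88; promoters came from RefSeq on GRCm38.p6. Neither is the build of the counts, so they serve for sequence, length and gene order only.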

Additional observations from a re-analysis of the deposited data

How the results depend on the processing

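Under the settings tried, no member passed the threshold in either LPS comparison or in the difference of the responses, and the adjusted p of the summed stefin A reads for LPS in Runx1KO ran from 0.21 to 1. Calls over all genes depended on the tool: DESeq2 called 386 genes between genotypes with vehicle, 401 with LPS and 1 for LPS in Runx1KO. Fits that left out libraries called 1 to 171 genes with vehicle and 3 to 135 with LPS. Causes were not tested. Ctla2b rests on 20 to 59 counts in each Control library. Stfa1 had 5 to 18 counts in its 6 low libraries, whose totals of 21096154 to 25443980 counts lay within the range of the others.

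With the library number as a replicate block, the genotype comparisons called 315 and 302 genes. A block of genotype and number, added after seeing the data, turned Stfa3 in Control to 0.00023 and Cst3 in Runx1KO to 0.020, both on the log2 scale for LPS.

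The stefin A sum with the other cluster genes differed by 2.08 between genotypes with LPS. Leaving out libraries moved the sum of the 4 members from −0.24 to 0.016 for LPS in Control and from 0.81 to 1.26 for genotype with vehicle. Values near 0 changed sign. Scaling by library size alone gave −0.067 for Stfa1 and −0.076 for Cstb with LPS in Control, and −0.22 for Cst3 and −0.026 for Ctla2a in the difference of responses. No filter gave −0.0016 for Stfa1 in Control and −0.032 for Cst3 in the difference, where DESeq2 gave −0.00577 and its size factors −0.00575. With limma-voom Stfa3 was 0.016 in Control and Cst3 0.022 in Runx1KO.

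With libraries left out, LPS in Control ran from −0.80 to 0.99 for Stfa1, −0.55 to 0.40 for Stfa2, −0.30 to 0.077 for Stfa2l1, −0.32 to 0.43 for Stfa3, −0.42 to 0.68 for Cstb, −0.40 to 0.18 for Cst3, −0.15 to 0.55 for Ctla2a and −0.68 to 0.16 for Ctla2b. In Runx1KO it ran from −3.69 to 5.61 for Stfa1, −0.44 to 0.42 for Cst3 and −0.52 to 0.18 for Ctla2b. The difference ran from −3.70 to 5.61 for Stfa1, −0.31 to 0.51 for Cst3, −0.16 to 0.50 for Ctla2a and −0.34 to 0.73 for Ctla2b. The ends of the Stfa1 ranges in Runx1KO and in the difference came from leaving out Runx1KO library 2 of either treatment.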
